A study of Homo sapiens with 6 samples.

Results

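The telomerase and shelterin genes are 10 of the 62754 genes in the deposited table, taken by gene name: the telomerase subunits TERT, TERC and DKC1, the shelterin subunits TERF1, TERF2, TERF2IP, POT1, TINF2 and ACD, and the helicase gene RTEL1. The 3 FOLFIRINOX libraries came from HPNE hTERT cells kept for 4 days in 5-fluorouracil at 10 µM, SN-38 at 25 nM and oxaliplatin at 5 µM, and the 3 vehicle libraries from cells given DMSO and collected at day 4. Per the labels, HPNE hTERT is a non-malignant ductal epithelial line of human pancreas, and the drugs were used to induce senescence. Both groups carry hTERT, the catalytic subunit of human telomerase, by which the line was immortalized. The promoter that drives it is not given in the sources used here. Gene-level reads cannot tell RNA of an introduced TERT copy from RNA of the gene on chromosome 5.

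Telomeres are repeats of TTAGGG at chromosome ends that shorten as cells divide. Telomerase adds repeats by copying a template within its own RNA, and most somatic cells silence its catalytic subunit. Shelterin is the protein complex that sits on the repeats, hides the ends from DNA damage signaling and governs access of telomerase.

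FOLFIRINOX cells had less TERT and ACD RNA than vehicle cells, and more TERF2IP and TERF1 RNA. TERT fell to 5294.5 ± 825 normalized reads in FOLFIRINOX libraries, against 11648 ± 2633 in vehicle libraries (SD, n = 3 each), a ratio of 0.455. TERF2IP rose to 14745 ± 525 in FOLFIRINOX libraries, against 9137 ± 554 in vehicle libraries, a ratio of 1.61. Of the 9 members tested, 2 rose, 2 fell and 5 did not pass. Among all 17951 genes tested with limma at an adjusted p of 0.05, 23.6% were called, 11.4% higher and 12.2% lower in FOLFIRINOX. With libraries of the same P number (P14, P15 or P19 in the file's column names) treated as pairs, called the block below, the same 4 members were called, among 44.1% of all genes (22.3% higher and 21.8% lower). TERC had no read in any library and was not tested.

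The normalized reads above are the authors' gene counts divided by 1 size factor per library. Gene reads summed to between 83981154 and 97762802 per library. Over all genes tested 2047 were higher and 2191 lower, and with each library scaled to a common total 2691 were higher and 1696 lower, with the median log2 difference of all genes shifted by 0.11. The 4 member calls were the same with that scaling, while TMM scaling lost that of TERF1 (limma adjusted p = 0.0582). The proliferation gene MKI67 averaged 30.2 ± 6.65 normalized reads in FOLFIRINOX libraries and 13874 ± 3569 in vehicle libraries. Mitochondrial ribosomal RNA made up 2.74%, 1.18% and 1.23% of reads in FOLFIRINOX P14, P15 and P19, against 0.864%, 0.563% and 0.552% in their vehicle counterparts. The part of either in the values below was not tested. In such bulk RNA, fewer cells of a kind and less RNA per cell cannot be told apart. Of 10 markers of ductal epithelium, 6 reached 10 normalized reads in 3 libraries, with KRT18, KRT8 and SOX9 among them. KRT19, EPCAM and CFTR were among those that did not. All 7 mesenchymal markers did, from VIM to PDGFRB, with summed levels of 2396440 to 2899680 in FOLFIRINOX and 3312080 to 4926820 in vehicle, while the ductal list summed to 8966 to 9959 in FOLFIRINOX and 11979 to 14439.7 in vehicle. Most of each sum came from 1 gene, FN1 with means of 1879130 in FOLFIRINOX and 2772920 in vehicle, and KRT18 with 7148 in FOLFIRINOX and 9901 in vehicle. The sums are not scaled to gene length and cover different numbers of genes.

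**Figure D1:**
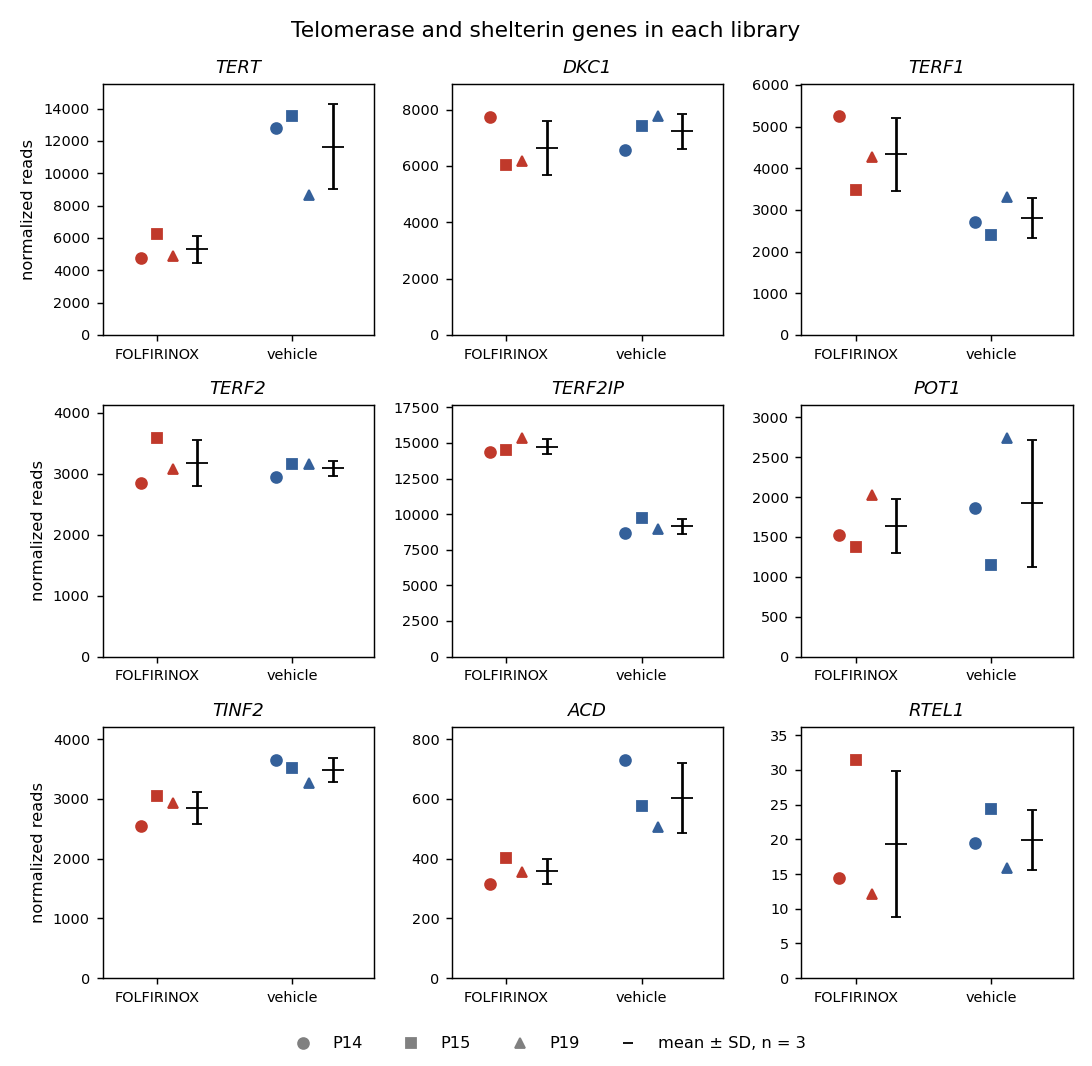
Normalized reads of the 9 tested members, with FOLFIRINOX libraries left of vehicle libraries in each panel, 1 symbol per P number, bars for mean ± SD and each axis starting at 0. Groups do not overlap for TERT, TERF1, TERF2IP, TINF2 and ACD, and they overlap for DKC1, TERF2, POT1 and RTEL1.

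TERT encodes the reverse transcriptase of telomerase. It lies on the minus strand at chr5:1253147-1295069 (GRCh38, GENCODE 29), and none of its exonic bases is shared with another annotated gene. Its level was 4749, 6243 and 4892 normalized reads in FOLFIRINOX P14, P15 and P19, against 12789, 13517 and 8636 in their vehicle counterparts. Every FOLFIRINOX library lay below every vehicle library, and vehicle P19 was the lowest of its group. The log2 difference was −1.12 ± 0.20 SE (95% interval −1.56 to −0.68, limma adjusted p = 0.00251), and within P14, P15 and P19 it was −1.43, −1.11 and −0.82. The authors' deposited table gives TERT a log2 fold change of −1.14 with adjusted p = 4.26e-06, where 19.4% of genes with an adjusted p passed 0.05, 9.5% higher and 9.89% lower.

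As a level per exonic kilobase, TERT ranked 3015 in FOLFIRINOX and 1398 in vehicle among 17335 tested genes with a known length. Its RNA thus stood above 82.6% of those genes in FOLFIRINOX and above 91.9% in vehicle, in a line that carries hTERT. The length used was the 4602 exonic bases of the annotated gene. RNA of an introduced copy may have another length, so these ranks are uncertain. The gene whose values ran most like those of TERT over the 6 libraries was SERPINH1, which encodes a collagen chaperone. Its centred log2 values differed from those of TERT by a root mean square of 0.035, where the median gene differed by 0.71. SERPINH1 was picked as the gene with the smallest difference among all genes tested, so a small value was built in. The same holds for the like profiles named below for TERF1, TERF2IP and ACD. SERPINH1 averaged 12514 ± 2279 normalized reads in FOLFIRINOX libraries and 28156 ± 6755 in vehicle libraries.

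TERC encodes the telomerase RNA with the template, and DKC1 encodes dyskerin, which binds and stabilizes that RNA. TERC had 0 reads in each of the 6 libraries, which allows up to 3 reads per library. Of recovered counts below 50, 72.3% to 74.8% were even in each library, so reads may not be separate fragments, and this limit is one of reads. The reason for the even counts was not tested. The mature telomerase RNA is not a typical polyadenylated messenger, the labels give poly(A) RNA as the molecule sequenced, and 81.0% of the exonic bases of TERC (chr3:169764520-169765060, minus strand) are also annotated as a second entry, RF00024, with 0 reads as well. The zero therefore gives no level of TERC in these cells.

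DKC1 (chrX:154762742-154777689, plus strand) had 7722, 6017 and 6159.9 normalized reads in FOLFIRINOX P14, P15 and P19, against 6547, 7408 and 7756 in the vehicle libraries. FOLFIRINOX P14 lay within the vehicle range and the other two FOLFIRINOX libraries below it. The log2 difference was −0.13 ± 0.16 (95% interval −0.49 to 0.23, adjusted p = 0.597), which bounds the change but does not show that there was none. The level of TERT per exonic kilobase over that of DKC1 was 0.562, 0.948 and 0.725 in FOLFIRINOX libraries, against 1.78, 1.67 and 1.02 in vehicle libraries, and these ratios did not overlap. Their size rests on the annotated length of TERT.

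**Figure D2:**
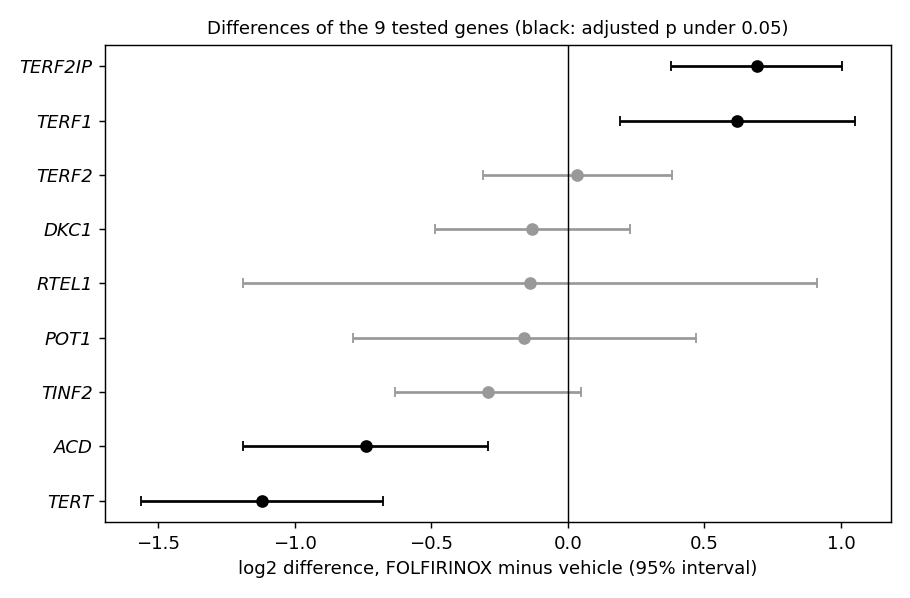
Log2 differences, FOLFIRINOX minus vehicle, of the 9 tested members with 95% intervals from limma, in black where the adjusted p is under 0.05. TERF2IP at 0.69 and TERF1 at 0.62 lie above 0, ACD at −0.74 and TERT at −1.12 below it, and the other 5 intervals include 0.

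TERF1 and TERF2 encode the proteins that hold shelterin on duplex telomeric repeats. TERF1 (chr8:73008864-73048122, plus strand) had 5245, 3490.4 and 4273 normalized reads in FOLFIRINOX P14, P15 and P19, against 2717, 2392 and 3315 in their vehicle counterparts. All FOLFIRINOX libraries lay above all vehicle libraries, with a narrow gap between FOLFIRINOX P15 and vehicle P19. The log2 difference was 0.62 ± 0.20 (95% interval 0.19 to 1.05, adjusted p = 0.0413), and 0.95, 0.55 and 0.37 within P14, P15 and P19. The call was lost in fits that left out FOLFIRINOX P14 (adjusted p = 0.135), FOLFIRINOX P19 (0.102), vehicle P14 (0.105), vehicle P15 (0.145) or the P14 pair (0.22). TMM scaling (0.0582) and limma without its trend (0.0983) lost it as well. The 7 TERF1 pseudogenes listed summed to between 35.5 and 43.2 normalized reads in FOLFIRINOX libraries and at most 26.6 in vehicle libraries, far below TERF1 itself, although reads can be split between near-identical copies. The profiles most like that of TERF1 were those of the RNA helicase gene DDX50 and of TMEM87A, at root mean square differences of 0.042 and 0.045 (0.52 for the median gene).

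TERF2 (chr16:69355561-69408571, minus strand) had 2846, 3582 and 3082 normalized reads in FOLFIRINOX libraries, against 2937, 3151 and 3163 in vehicle libraries. The groups overlapped in full, as the vehicle range lay inside the FOLFIRINOX range. Its log2 difference was 0.03 ± 0.16 (95% interval −0.31 to 0.38, adjusted p = 0.898).

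TERF2IP encodes RAP1, which is recruited to telomeres through TERF2 and in other contexts acts in NF-kB signaling. It had 14362, 14528 and 15344 normalized reads in FOLFIRINOX P14, P15 and P19, against 8682, 9754 and 8976 in their vehicle counterparts. The groups were far apart, with a log2 difference of 0.69 ± 0.14 (95% interval 0.38 to 1.00, adjusted p = 0.00534) and 0.73, 0.57 and 0.77 within P14, P15 and P19. The authors' deposited table gives it a log2 fold change of 0.69 with adjusted p = 5.2e-04. The profile most like that of TERF2IP was that of CPOX, a heme synthesis enzyme, with a root mean square difference of 0.030, followed by the glucose transporter SLC2A3 at 0.031 (0.50 for the median gene).

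The promoters of TERF2IP, a shelterin gene that rose, and of ACD, the one that fell, are shown because these genes moved in opposite directions. They are RefSeq sequence of GRCh38.p14, from 250 bases before to 50 bases after the start site, on the strand of the gene, and 7 of the 10 members had one. Capitals mark matches on either strand to the GC box (GGGCGG), the CCAAT box (those letters), the E-box (CACGTG), the ETS core (CCGGAAG), the telomere repeat (TTAGGG) or the NRF1 core.
TERF2IP, chr16:75647523-75647822, plus strand: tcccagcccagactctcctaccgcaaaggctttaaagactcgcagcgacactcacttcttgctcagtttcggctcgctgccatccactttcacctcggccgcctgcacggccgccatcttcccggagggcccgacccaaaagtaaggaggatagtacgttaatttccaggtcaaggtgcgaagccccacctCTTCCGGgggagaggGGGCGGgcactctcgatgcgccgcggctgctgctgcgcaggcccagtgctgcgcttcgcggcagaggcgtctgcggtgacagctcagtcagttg
ACD, chr16:67660211-67660510, minus strand: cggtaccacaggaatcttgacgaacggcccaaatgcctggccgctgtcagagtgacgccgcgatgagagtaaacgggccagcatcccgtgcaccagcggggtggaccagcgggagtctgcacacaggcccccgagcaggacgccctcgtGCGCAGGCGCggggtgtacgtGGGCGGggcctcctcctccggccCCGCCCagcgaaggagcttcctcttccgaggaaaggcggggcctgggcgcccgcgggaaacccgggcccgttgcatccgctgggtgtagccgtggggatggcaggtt

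The TERF2IP window held 1 GC box and 1 ETS core and the ACD window 2 GC boxes and 1 NRF1 core. Of 35116 RefSeq promoters of this length, 45.0% held a GC box, 10.3% an ETS core and 5.78% an NRF1 core, with no overlap of the marked motifs in the 2 windows shown. CCAAT, the E-box and the telomere repeat, held by 34.6%, 7.26% and 9.05% of promoters, were in neither window.

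The start site of TERF2IP lies 108 bases from that of KARS1, the lysyl-tRNA synthetase gene, which is read in the opposite direction. KARS1, named here after its values were seen, had 17354, 14880.4 and 14304 normalized reads in FOLFIRINOX libraries, against 20815, 18566 and 19534 in vehicle libraries. Every FOLFIRINOX value of KARS1 lay below every vehicle value, with a log2 difference of −0.34 ± 0.15 that did not pass without the block (adjusted p = 0.121, and 0.00923 with the libraries blocked by P number). The 2 genes share 176 exonic bases, or 5.21% of those of TERF2IP, on opposite strands, and as no source used here states the strand setting of the counting, reads there cannot be assigned.

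TINF2, POT1 and ACD encode the bridge from the duplex-binding proteins to the single-stranded overhang: TIN2, the overhang-binding protein POT1, and TPP1, which pairs with POT1 and recruits telomerase. ACD (chr16:67657512-67660815, minus strand) had 317, 401 and 357 normalized reads in FOLFIRINOX P14, P15 and P19, against 731, 575 and 505 in their vehicle counterparts. All FOLFIRINOX libraries lay below all vehicle libraries, and vehicle P14 was the highest. The mean was 358 ± 42.2 in FOLFIRINOX libraries and 604 ± 116 in vehicle libraries, a log2 difference of −0.74 ± 0.20 (95% interval −1.19 to −0.29, adjusted p = 0.0232), with −1.20, −0.52 and −0.50 within P14, P15 and P19. Fits that left out FOLFIRINOX P14 (adjusted p = 0.0707), FOLFIRINOX P19 (0.0665), vehicle P14 (0.0852), vehicle P15 (0.0546) or the P14 pair (0.167, at a log2 difference of −0.51) lost the call. In every one of these the value stayed negative. The profiles most like that of ACD were those of TWF2, which encodes an actin-binding twinfilin, and YIF1B, at root mean square differences of 0.030 and 0.051 (0.55 for the median gene).

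TINF2 (chr14:24239643-24242674, minus strand) had 2553, 3052 and 2933 normalized reads in FOLFIRINOX libraries, against 3655, 3518 and 3273 in vehicle libraries. The groups did not overlap, which held for 5 of the 9 tested members and for 39.5% of all genes tested. The log2 difference of −0.29 ± 0.15 did not pass (95% interval −0.63 to 0.05, adjusted p = 0.198). With the block it was −0.29 ± 0.12 and narrowly did not pass (adjusted p = 0.0528). Within P14, P15 and P19 it was −0.52, −0.21 and −0.16.

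POT1 (chr7:124822386-124929983, minus strand) had 1521, 1376 and 2025 normalized reads in FOLFIRINOX P14, P15 and P19, against 1869, 1153 and 2740.3 in their vehicle counterparts. Libraries of the same P number stood in the same order in both groups, P19 highest and P15 lowest, and the groups overlapped. The log2 difference was −0.16 ± 0.28 (95% interval −0.79 to 0.47, adjusted p = 0.723), and −0.16 ± 0.14 with the block (adjusted p = 0.371). Its antisense neighbour POT1-AS1, whose start site is 48 bases away, differed by 0.33 ± 0.31 (adjusted p = 0.475).

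RTEL1 (chr20:63657810-63696253, plus strand) encodes a helicase that opens the telomere loop for replication. It had 14.4, 31.5 and 12.1 normalized reads in FOLFIRINOX libraries, against 19.5, 24.4 and 15.9 in vehicle libraries, with a log2 difference of −0.14 ± 0.48 (95% interval −1.19 to 0.91, adjusted p = 0.859). Of the exonic bases of RTEL1, 70.2% are also annotated as the readthrough gene RTEL1-TNFRSF6B, which averaged 15.2 ± 4.39 in FOLFIRINOX libraries and 19.5 ± 6.20 in vehicle libraries. Reads in shared exons can be left uncounted or split, so the level of RTEL1 is uncertain.

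Per exonic kilobase the members ranked by mean level in FOLFIRINOX as TERF2IP (4364 normalized reads per kilobase), DKC1 (1578), TERT (1150.5), TINF2 (1049), TERF2 (564), TERF1 (491), POT1 (278), ACD (111) and RTEL1 (3.00). In vehicle the order was TERF2IP (2704), TERT (2531), DKC1 (1722), TINF2 (1284), TERF2 (549), POT1 (326), TERF1 (318), ACD (187) and RTEL1 (3.09). Ranges of neighbours overlapped between TERT and TINF2 and between TERF2 and TERF1 in FOLFIRINOX, and between TERF2IP and TERT and between POT1 and TERF1 in vehicle. The other neighbours were separate in all libraries of a group. At its annotated length TERT thus stood beside TERF2IP in vehicle and beside TINF2 in FOLFIRINOX. With another length for an introduced copy, its place in both orders could differ.

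Within the summed level of the 6 shelterin genes per exonic kilobase, TERF2IP made up 63.9%, 63.1% and 63.9% in the FOLFIRINOX libraries, against 48.6%, 53.6% and 49.0% in the vehicle libraries. TINF2 made up 14.2%, 16.5% and 15.2% in FOLFIRINOX, against 25.5%, 24.1% and 22.3% in vehicle. ACD had the smallest share, 1.48%, 1.83% and 1.56% in FOLFIRINOX and 4.29%, 3.31% and 2.89% in vehicle. These 3 shares did not overlap between groups. Neither did those of TERF2, at 7.62%, 9.35% and 7.71% in FOLFIRINOX against 9.88%, 10.4% and 10.4% in vehicle. The levels of TERF2 itself overlapped between groups, so its lower share shows no fall in its level. Shares are tied to each other, and the sum itself was 6648.5, 6815 and 7109 normalized reads per kilobase in FOLFIRINOX libraries, against 5291, 5389 and 5423 in vehicle libraries. TERF2IP over its binding partner TERF2 was 8.39, 6.75 and 8.28 in FOLFIRINOX libraries, against 4.92, 5.15 and 4.72 in vehicle libraries.

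**Figure D3:**
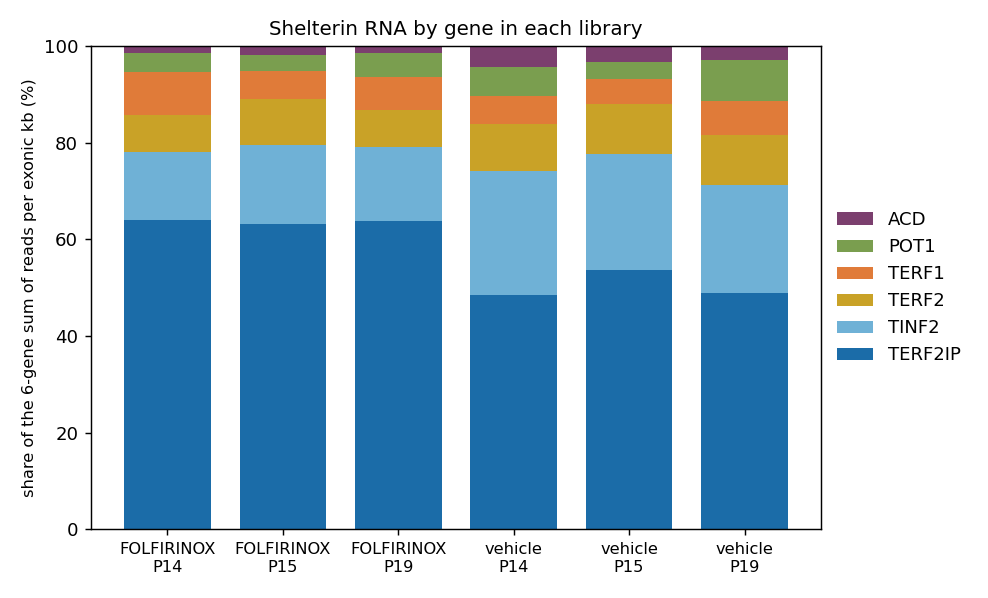
Share of each shelterin gene in the 6-gene sum of normalized reads per exonic kilobase, 1 stacked bar per library, FOLFIRINOX libraries left of vehicle libraries. TERF2IP takes 63.1% to 63.9% of FOLFIRINOX bars and 48.6% to 53.6% of vehicle bars, while TINF2 and ACD take less in FOLFIRINOX.

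The wider telomere pathway was followed in 6 lists with 80 genes, 78 of them tested. Of these 2 were called higher and 27 lower, where 11.4% and 12.2% of all genes tested were, and with the block 9 were higher and 37 lower, where 22.3% and 21.8% were. The median log2 difference was −0.26 over the lists and 0.02 over all genes tested. Both lower counts and the list median include ASF1B, which passed the filter on low values only through the vehicle libraries. It could be tested only by being lower in FOLFIRINOX, so it adds no support to them. The list of telomere replication had the lowest median. Of its 12 genes 9 fell and none was called higher by limma, edgeR or DESeq2, or had an unadjusted p under 0.05 in that direction, with a median of −1.51. BLM, the Bloom syndrome helicase, fell to 55.6 ± 10.8 normalized reads in FOLFIRINOX libraries, against 1563 ± 576 in vehicle libraries (log2 difference −4.75 ± 0.28, adjusted p = 5.8e-07). The proliferation gene MKI67 differed by −8.78 in the same libraries, and its part in these values was not tested. The nuclease genes EXO1 and FEN1 fell too, with log2 differences of −4.09 and −3.45. WRN, the Werner syndrome helicase, chosen after its value was seen, differed by −0.02 ± 0.24 (adjusted p = 0.964).

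CST, made of CTC1, STN1 and TEN1, binds the telomeric overhang and brings in polymerase alpha-primase to fill in the other strand. STN1 rose to 806 ± 22.3 normalized reads in FOLFIRINOX libraries, against 512 ± 28.2 in vehicle libraries (0.66 ± 0.17, adjusted p = 0.0158). Its call was lost without FOLFIRINOX P15 (adjusted p = 0.0545), FOLFIRINOX P19 (0.0597) or both P14 libraries (0.0838). Of the 6 tested genes of this list 1 was called higher and 4 lower. Among all genes tested with limma 11.4% were higher and 12.2% lower. The 4 that fell were the polymerase alpha-primase genes. Their log2 differences were −2.53 for POLA1, −2.34 for PRIM1, −1.36 for POLA2 and −1.15 for PRIM2, the last named after its value was seen. CTC1 differed by −0.08 ± 0.23 (adjusted p = 0.842), and TEN1, at 2.57 normalized reads in FOLFIRINOX and 2.10 in vehicle, was too low to test.

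Of 18 genes of telomerase assembly and TERC maturation 5 fell and none was called higher by limma or edgeR, while DESeq2 called 1 higher and 1 had an unadjusted limma p under 0.05 in that direction. Among all genes tested with limma 12.2% were lower and 11.4% higher. The median of the 18 was −0.17. WRAP53, whose product TCAB1 brings telomerase to Cajal bodies, fell to 494 ± 70.8 normalized reads in FOLFIRINOX libraries, against 895 ± 146 in vehicle libraries (−0.85 ± 0.20, adjusted p = 0.00974, and 0.0889 without both P14 libraries). TOE1, a deadenylase that trims TERC, fell by 0.77 and the telomerase inhibitor PINX1 by 0.68 on the log2 scale. The call of PINX1 was lost without FOLFIRINOX P15, FOLFIRINOX P19, vehicle P14 or vehicle P19 (adjusted p between 0.0580 and 0.155), and scaling to a common total lost it as well (0.0671). So did leaving out both P14 libraries (0.0794) or the limma trend (0.0718). RUVBL2 and EXOSC10 completed the 5, named after their values were seen, and EXOSC10 passed narrowly with limma (adjusted p = 0.0478) and not with edgeR (0.0525), which called 4 lower. The number that fell was 3 without FOLFIRINOX P15, vehicle P14 or vehicle P19, 2 without FOLFIRINOX P19 and 1 without both P14 libraries. With the block 2 rose and 7 fell, where 22.3% and 21.8% of all genes did. The partners of dyskerin NHP2, NOP10 and GAR1 differed by −0.44, −0.25 and −0.24 and did not pass without the block, with which NHP2 was lower (adjusted p = 0.00254).

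Of 16 partners of shelterin proteins 3 fell, and none was called higher by limma, edgeR or DESeq2 or had an unadjusted p under 0.05 in that direction. Among all genes tested 12.2% were lower, not far from that share. The median of the 16 was −0.08, and with the block 1 rose and 6 fell, where 22.3% and 21.8% of all genes did. DCLRE1B, the Apollo nuclease that TERF2 recruits, fell to 645 ± 80.8 normalized reads in FOLFIRINOX libraries, against 1666 ± 299 in vehicle libraries (−1.36 ± 0.19, adjusted p = 5.7e-04). FBXO4, which marks TERF1 protein for breakdown, fell by 0.89, and the nuclease subunit ERCC1 by 0.70 on the log2 scale. The call of ERCC1 was lost without FOLFIRINOX P19 (adjusted p = 0.0564) and without both P14 libraries (0.0732). The tankyrases TNKS and TNKS2, which release TERF1 from telomeres, differed by −0.09 ± 0.20 and 0.29 ± 0.24 (adjusted p = 0.767 and 0.416). TNKS2 was the gene that rose with the block (adjusted p = 0.0341).

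Of 14 genes of telomeric chromatin 4 were called lower, 1 of them ASF1B, and none was called higher by limma, edgeR or DESeq2, with 1 at an unadjusted p under 0.05 in that direction. Among all genes tested with limma 12.2% were lower and 11.4% higher. The median of the 14 was −0.26. ASF1B, a histone chaperone, had 3.21 ± 2.07 normalized reads in FOLFIRINOX libraries, against 1320.2 ± 18.4 in vehicle libraries. It passed the filter on low values only through the vehicle libraries, so it could be tested only by being lower in FOLFIRINOX, and its call adds no support to the count. The histone methyltransferase genes SUV39H1 and SUV39H2 fell by 2.17 and 1.19 on the log2 scale. NR2F2, named after its value was seen, was the other. ATRX and DAXX, whose products place histone H3.3 at telomeres, differed by 0.52 ± 0.25 and −0.38 ± 0.15 (adjusted p = 0.162 and 0.0928). With the block 3 rose and 6 fell, where 22.3% and 21.8% of all genes did. ATRX was among the 3 that rose (adjusted p = 3.7e-04) and DAXX among the 6 that fell (0.0108). Without vehicle P19 2 were called higher, and without vehicle P15 or both P14 libraries 2 were called lower. In fits that left out a vehicle library ASF1B was no longer tested, which takes 1 from their lower counts without a lost call.

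Of 12 tested regulators of the TERT gene 1 rose and 2 fell, near the 11.4% higher and 12.2% lower of all genes tested, with a median of −0.15. E2F1 fell to 77.7 ± 9.32 normalized reads in FOLFIRINOX libraries, against 983 ± 56.7 in vehicle libraries, and MYC, known to activate TERT transcription, to 4819 ± 444 in FOLFIRINOX against 7089 ± 1042 in vehicle (−0.55 ± 0.17, adjusted p = 0.0344). ETS2 rose by 0.52 ± 0.15 (adjusted p = 0.0260). The call of ETS2 was lost without any library but vehicle P19 (adjusted p 0.0635 to 0.0937), and that of MYC likewise (0.0529 to 0.141). Over all processing alternatives, ETS2 lost its call in 7 (adjusted p 0.0561 to 0.136) and MYC in 8 (0.0529 to 0.157). Without vehicle P19 2 regulators rose and 3 fell, where 2214 of all genes were higher and 2156 lower. With the block 2 rose and 5 fell, where 22.3% and 21.8% of all genes did. These regulators act on the chromosomal gene, and how much of the TERT RNA came from it was not tested.

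**Figure D4:**
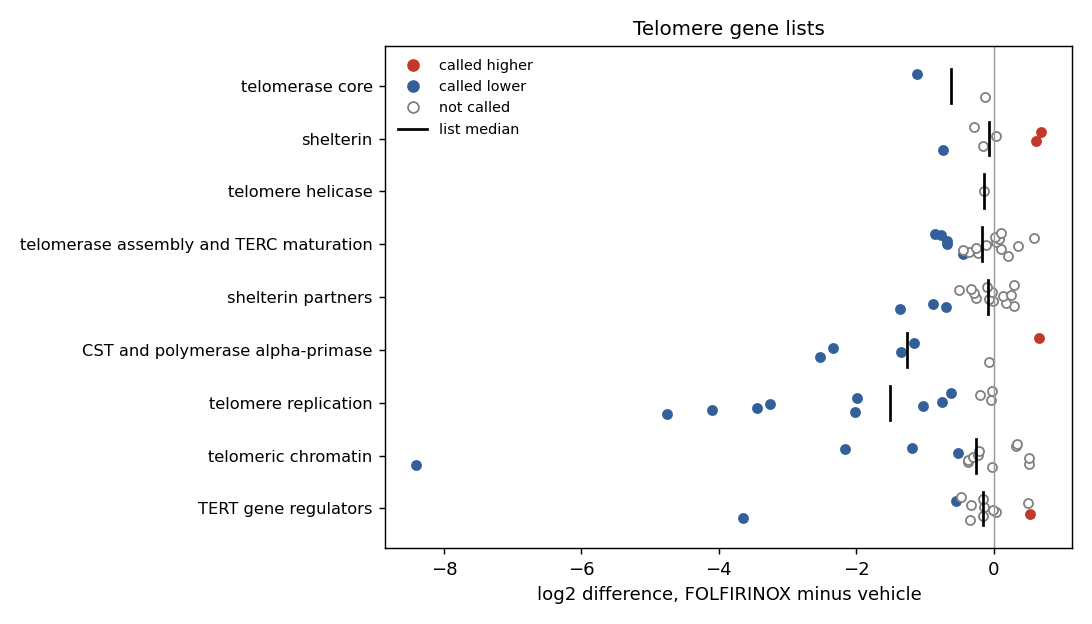
Log2 differences, FOLFIRINOX minus vehicle, of each tested gene in the member groups and the 6 pathway lists, with 1 circle per gene, filled red where called higher and blue where called lower, and a black line at each list's median. The telomere replication list has its median at −1.51 and 9 of 12 genes called lower, and shelterin has genes on both sides of 0.

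Under the processing alternatives the 4 called members kept their sign. TERT ranged over −1.32 to −0.97 with adjusted p from 3.4e-09 to 0.0395, and TERF2IP over 0.65 to 0.80 with adjusted p from 4.5e-06 to 0.0356, so both were called in all 17. TERF1 ranged over 0.46 to 0.77 with adjusted p from 1.7e-04 to 0.22, and ACD over −0.86 to −0.51 with adjusted p from 7.0e-04 to 0.167.

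**Figure D5:**
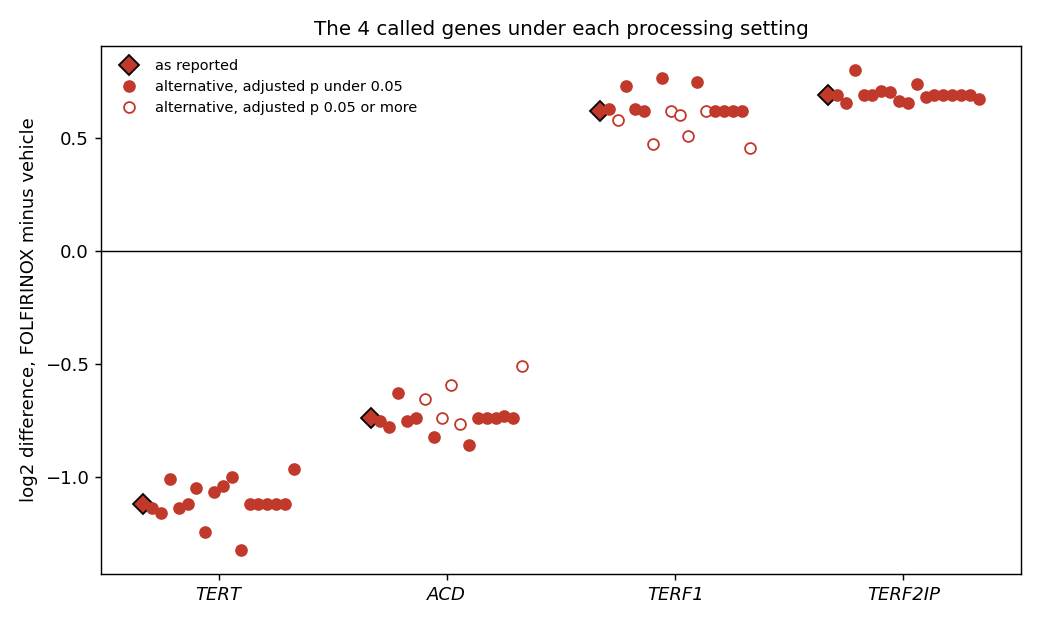
Log2 difference, FOLFIRINOX minus vehicle, of the 4 called members as reported (diamond) and under each of 17 alternatives (circles, in a fixed order from left to right within a gene), open where the adjusted p is 0.05 or more. TERT and TERF2IP are filled throughout, and TERF1 and ACD are open under some alternatives.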

How the data were processed

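RNA of 6 libraries was analysed. The submitters' processing notes list DESeq2, featureCounts (2.0.6), STAR (2.7.11b), FastQC (0.12.1) and the build GRCh38. Order of use, annotation release and strand setting were not given in these sources. Per the file headers, the deposited table holds a normalized signal per library and the authors' log2 fold changes, Wald scores and p-values. All values were whole multiples, within 0.001, of 1 read in their column (100%), so reads were recovered. Columns carry a P number found in no label; they were assigned to groups only. Deviations from group means correlated at 0.257, 0.282 and 0.288 between libraries of the same P number (17951 genes) and at −0.26 to −0.03 otherwise, so P numbers were read as pairs. As each group was centred on its own mean, positive values within pairs push the others below 0 on average. The negative values are thus no separate support for the pairing.

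Log2(value + 1) was tested with limma (3.58.1, trend fitted, no block). Genes had to reach 10 in 3 or more libraries, and Benjamini-Hochberg adjusted p-values were read at 0.05. This scale understates the change of low genes. edgeR 4.0.16 called 1987 genes higher and 2183 lower on recovered reads, and DESeq2 1.42.0 was also run. Limits of 0 are 3 reads per library and cover counting error only. Whether the libraries stem from separate cultures is stated in no label, and p-values then cover only the spread between these libraries, which may be technical. Exonic lengths and coordinates are from GENCODE 29. PINX1 names 2 rows; the one with more reads was used. Named were all members, up to 3 called genes per list and direction with a mean of 50 or more, MKI67, and up to 2 genes nearest each called member; some genes these rules name are not reported here. Members and lists were chosen with earlier results of these data known. The limma step was tested on simulated data.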

Additional observations from a re-analysis of the deposited data

How the results depend on the processing

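The directions of TERT, TERF2IP, TERF1 and ACD held under all 17 alternatives. With the replicate block (P number) no member call changed. All genes then gave 3995 higher and 3918 lower, telomerase assembly 2 higher, shelterin partners 1 higher and 6 lower, telomeric chromatin 3 higher and TERT regulators 2 higher and 5 lower. Without both P14 libraries 1021 of all genes were higher and 1326 lower, members 1 and 1 (TERF1 at 0.46, adjusted p = 0.22, and ACD at −0.51), telomerase assembly 1 lower, CST and primase 0 higher, telomeric chromatin 2 lower, and TERT regulators 0 higher and 1 lower. With TMM scaling 1 member was higher (TERF1 at 0.58, adjusted p = 0.0582) and TERF2 differed by −0.0043. Without the limma trend 1 member was higher (TERF1 at 0.62, adjusted p = 0.0983), telomerase assembly had 3 lower, and TERT regulators 0 higher and 1 lower. With common-total scaling telomerase assembly had 1 higher and 3 lower and TERT regulators 2 higher and 1 lower. DESeq2, a filter at 50 and a pseudocount of 8 each gave 1 telomerase assembly gene higher, and no filter 2 TERT regulators higher. The cause was not tested. Leaving out each library in turn gave 1201 to 2214 of all genes higher, 1 to 2 members higher and 1 to 2 lower, telomerase assembly 0 to 1 higher and 2 to 4 lower, CST and primase 0 to 1 higher, telomeric chromatin 0 to 2 higher and 2 to 3 lower (ASF1B was not tested without a vehicle library), and TERT regulators 0 to 2 higher and 1 to 3 lower. Over the same fits TERF1 ranged from 0.47 to 0.77, ACD from −0.86 to −0.59, TERF2 from −0.057 to 0.11, POT1 from −0.48 to 0.14 and RTEL1 from −0.54 to 0.12. Leaving out a library leaves fewer samples per fit. The 13 to 32 reads of RTEL1 in each library, which may not be separate fragments, limit its precision.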
